A study of Mus musculus with 8 samples.

Results

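The genes for the insulin-like growth factor (IGF) binding proteins and receptors were followed in sorted mouse prostate epithelium. The set holds 10 genes of the 55335 listed in the tables and was taken by symbol: Igfbp2, Igfbp3, Igfbp4, Igfbp5, Igfbp6 and Igfbp7, the receptors Igf1r, Insr and Igf2r, and the ligand Igf1. RNA was sequenced from EpCAM+ CD24a+ CD49f-low cells in 8 libraries, 2 in each of 4 groups. All mice shared 1 prostate genotype by label, called PP. PPK mice carried Kmt2cPC-/- as well and were profiled with ADT at 6.5 months and as sham at 3.5 months. PP mice, without the Kmt2c allele, were profiled at the same 2 ages and treatments. PC is not spelled out in the labels, and neither the Cre driver nor the deleted exons are given. ADT is the usual short form of androgen deprivation therapy, and its method is not given. Every ADT group was older than its sham group, so treatment and age cannot be told apart. The labels also do not say whether the libraries A and B of a group came from separate animals, so p-values rest on the spread between libraries that may be technical repeats.

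IGF1 and IGF2 are secreted ligands that act through the IGF1 receptor and, in part, the insulin receptor, which signal to PI3K and AKT. IGF binding proteins hold IGFs outside the cell, where they can block, store or deliver them, and several also bind matrix or cell surface proteins. In the rat ventral prostate, RNAs of several Igfbp genes are known to increase after castration.

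Values are FPKM (fragment numbers scaled by the size of the library and the length of the gene), which can thus be set side by side between genes. A gene was tested when at least 2 libraries had 1 FPKM or more, which 14000 genes did. Fold changes are limma estimates on the log2(FPKM + 1) scale with their standard error (SE), and this scale understates the change of low genes. A gene was called at a Benjamini-Hochberg adjusted p under 0.05. Summed FPKM per library lay between 284015 and 333977, and the 2 libraries of a group correlated at 0.9859 to 0.9885 across genes. The sequencing depth is unknown because the tables hold no counts. Kmt2c itself had 6.60 and 6.36 FPKM in PPK ADT libraries, against 10.3 and 9.33 in PP ADT libraries. In sham mice it had 8.67 and 8.15 FPKM in PPK libraries, against 13.3 and 13.9 in PP libraries. Its gene-level value was thus lower in both PPK groups (log2 fold change -0.53, adjusted p 0.00054 with ADT, and -0.63, adjusted p 0.000795 in sham) but was not 0, and it also counts any exons that the allele leaves in place.

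The stretches of 120 bases before the RefSeq start of 4 members are shown because these genes had the largest changes (Igfbp3, Igfbp5, Igfbp7) or the smallest spread over the libraries (Igf2r). They were read 5′ to 3′ on the gene's strand from the RefSeq promoter table of GRCm38.p6, in which 9 of the 10 members were found, all but Insr. Capitals mark spellings of a TATA-like element, which were TATATA and its relatives, namely TATTTA and also the usual TATAAA, and the core of a GC box, GGGCGG. Both strands were searched, and a GC box core on the other strand reads CCGCCC. The RefSeq start of Igfbp5 lies inside the GENCODE span of the gene given further below, so part of its window does too.
Igfbp3, chr11:7213924-7214043, minus strand: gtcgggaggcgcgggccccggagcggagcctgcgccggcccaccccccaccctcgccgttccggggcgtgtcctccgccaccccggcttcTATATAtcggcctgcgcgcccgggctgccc
Igfbp5, chr1:72874866-72874985, minus strand: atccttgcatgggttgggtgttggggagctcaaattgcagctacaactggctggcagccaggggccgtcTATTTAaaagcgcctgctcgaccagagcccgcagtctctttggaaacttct
Igfbp7, chr5:77408046-77408165, minus strand: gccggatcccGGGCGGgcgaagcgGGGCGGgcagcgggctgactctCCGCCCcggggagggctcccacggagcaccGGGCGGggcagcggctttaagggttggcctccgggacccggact
Igf2r, chr17:12769707-12769826, minus strand: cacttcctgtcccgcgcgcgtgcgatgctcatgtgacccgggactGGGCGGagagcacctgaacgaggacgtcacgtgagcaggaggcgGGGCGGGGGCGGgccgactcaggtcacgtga
The window of Igfbp3 held 1 TATATA and that of Igfbp5 held 1 TATTTA, with no GGGCGG in either. The window of Igfbp7 held 4 GGGCGG and that of Igf2r held 3, of which 2 abut, and neither held a TATA spelling. Among all 32851 promoter windows of the same length, 12.3% held at least 1 of the 3 TATA spellings and 26.5% held GGGCGG. The spellings were chosen after the windows had been read, and a match is a description and not a site.

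Igfbp3 and Igfbp5 were far higher in PPK than in PP epithelium with ADT, and lower in PPK than in PP epithelium in sham mice. Igfbp7 was lower in PPK than in PP with ADT, where PP had its highest values of the study. With ADT, 6 of the 9 tested members were higher in PPK than in PP (Igfbp3, Igfbp5, Igfbp4, Igfbp2, Igf1r and Igfbp6) and 2 were lower (Igfbp7 and Insr), while 32.5% of all tested genes were higher, 27.1% lower and 59.6% called in all. In sham mice 1 member was higher in PPK (Igfbp4) and 3 were lower (Igfbp5, Igfbp3 and Igf2r), beside 13.7% of all tested genes higher, 14.9% lower and 28.6% called. Called with at least a 2-fold change were 5 members with ADT, against 17.8% of all tested genes, and 1 member in sham (Igfbp5), against 3.68%. The members' median log2 fold change of PPK over PP was 0.93 with ADT, where that of all tested genes was 0.05, and 0.01 in sham, where that of all tested genes was -0.02. Igf1 stayed under the level needed for the test. Igfbp2 entered it only through the PPK ADT libraries, so its call there follows in part from the filter. Igfbp4 reached 1 FPKM only in PPK libraries, and the same holds for its PPK over PP calls. Igfbp6 did not reach 1 FPKM in PP ADT libraries, so its calls against that group also follow in part from the filter.

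Within PP mice, ADT with age went with 1 member higher (Igfbp7) and 4 lower (Igfbp5, Igfbp3, Igf1r and Igfbp6) than in sham, beside 19.1% of all tested genes higher, 25.1% lower and 44.2% called. Under median-of-ratios scaling or quantile normalization the split was 2 higher and 3 lower. Within PPK mice 4 members were higher with ADT than in sham (Igfbp3, Igfbp5, Igfbp2 and Igfbp4) and 2 lower (Igfbp7 and Insr), beside 31.9% of all tested genes higher, 30.7% lower and 62.6% called. At least 2-fold changes were called for 2 members in PP (Igfbp5 and Igfbp7), against 8.67% of all tested genes, and for 2 members in PPK (Igfbp3 and Igfbp5), against 19.7%. The members' median was -0.05 in PP and 0.10 in PPK, where that of all tested genes was -0.07 and 0.00. The difference of the genotype effects, PPK over PP with ADT minus PPK over PP in sham, was called higher for 6 members and lower for 2, beside 30.0% of all tested genes higher, 22.8% lower and 52.8% called. It reached 2-fold for 3 members (Igfbp3, Igfbp5 and Igfbp7), against 21.0% of all tested genes. Igfbp2 entered the test only through the PPK ADT libraries. Its calls within PPK mice and for the difference thus follow in part from the filter. The 5 comparisons share libraries, so their counts are not independent of each other.

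**Figure D1:**
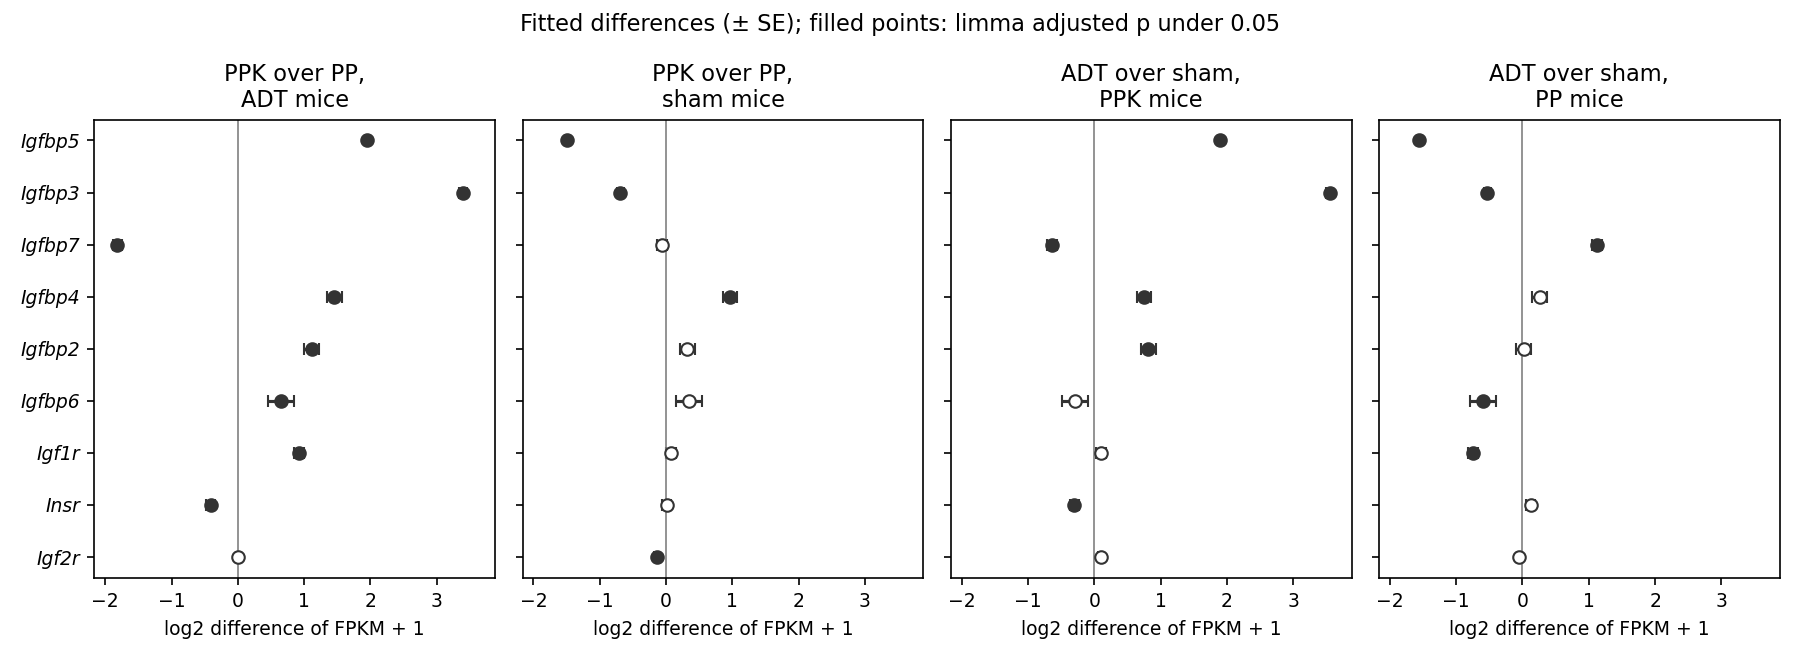
Log2 fold changes of FPKM + 1 for the 9 tested members (rows), with standard errors, in 4 panels for PPK over PP with ADT and in sham, and ADT over sham in PPK and in PP. Filled points passed the test. Igfbp3 and Igfbp5 lie on opposite sides of 0 for PPK over PP with ADT (3.40 and 1.95) and in sham (-0.69 and -1.50).

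Igfbp3 (ENSMUSG00000020427, chr11:7206086-7213923, minus strand, GENCODE M21 on GRCm38) encodes the main carrier of IGFs in serum. It had 73.8 and 76.0 FPKM in PPK ADT libraries, 6.10 and 6.32 in PP ADT, 5.23 and 5.72 in PPK sham, and 9.49 and 9.37 in PP sham libraries. The PPK ADT libraries stood above all others and none of the groups overlapped. With ADT the log2 fold change of PPK over PP was 3.40 ± 0.05 (SE, adjusted p 6.52e-08), a 12.1-fold ratio of mean FPKM and the 52nd highest change of 14000 tested genes. In sham mice it was -0.69 ± 0.05 (adjusted p 0.000226), and the difference between both effects was 4.09 ± 0.08 (adjusted p 2.16e-07). ADT with age also went in opposite directions, with 3.55 ± 0.05 in PPK (adjusted p 3.47e-08) and -0.53 ± 0.05 in PP mice (adjusted p 0.000347).

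Igfbp5 (ENSMUSG00000026185, chr1:72857932-72874884, minus strand) encodes a binding protein that also attaches to extracellular matrix. It had 216 and 218 FPKM in PPK ADT libraries, 54.9 and 55.9 in PP ADT, 58.6 and 56.7 in PPK sham, and 166 and 164 in PP sham libraries. PPK ADT and PP sham were the high groups, and PP ADT and PPK sham the low ones. The log2 fold change of PPK over PP was 1.95 ± 0.03 with ADT (adjusted p 4.92e-08) and -1.50 ± 0.03 in sham (adjusted p 1.5e-06). The sham change was the 99th lowest of 14000 tested genes. The change with ADT and age was 1.89 ± 0.03 in PPK (adjusted p 3.24e-08) and -1.56 ± 0.03 in PP mice (adjusted p 2.59e-07). The genotype effects differed by 3.45 ± 0.04 (adjusted p 3.72e-08).

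Igfbp7 (ENSMUSG00000036256, chr5:77349240-77408041, minus strand) encodes a secreted protein related to the IGFBPs with low affinity for IGFs. It had 26.5 and 29.9 FPKM in PPK ADT libraries, 97.9 and 105 in PP ADT, 43.5 and 45.1 in PPK sham, and 48.3 and 44.1 in PP sham libraries. Its order over the ADT groups was the reverse of that of Igfbp3 and Igfbp5, and the sham groups overlapped. PPK over PP gave a log2 fold change of -1.82 ± 0.07 with ADT (adjusted p 2.44e-06) and -0.06 ± 0.07 in sham (adjusted p 0.591). PPK mice changed by -0.64 ± 0.07 with ADT and age (adjusted p 0.000326) and PP mice by 1.12 ± 0.07 (adjusted p 4.49e-05). The difference of the genotype effects was -1.76 ± 0.10 (adjusted p 2.09e-05). Igfbp7 overlaps Polr2b on the opposite strand, which had 9.69 to 14.4 FPKM. The kit keeps strand but strand-wise counting is not stated, so reads of such pairs cannot be told apart.

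**Figure D2:**
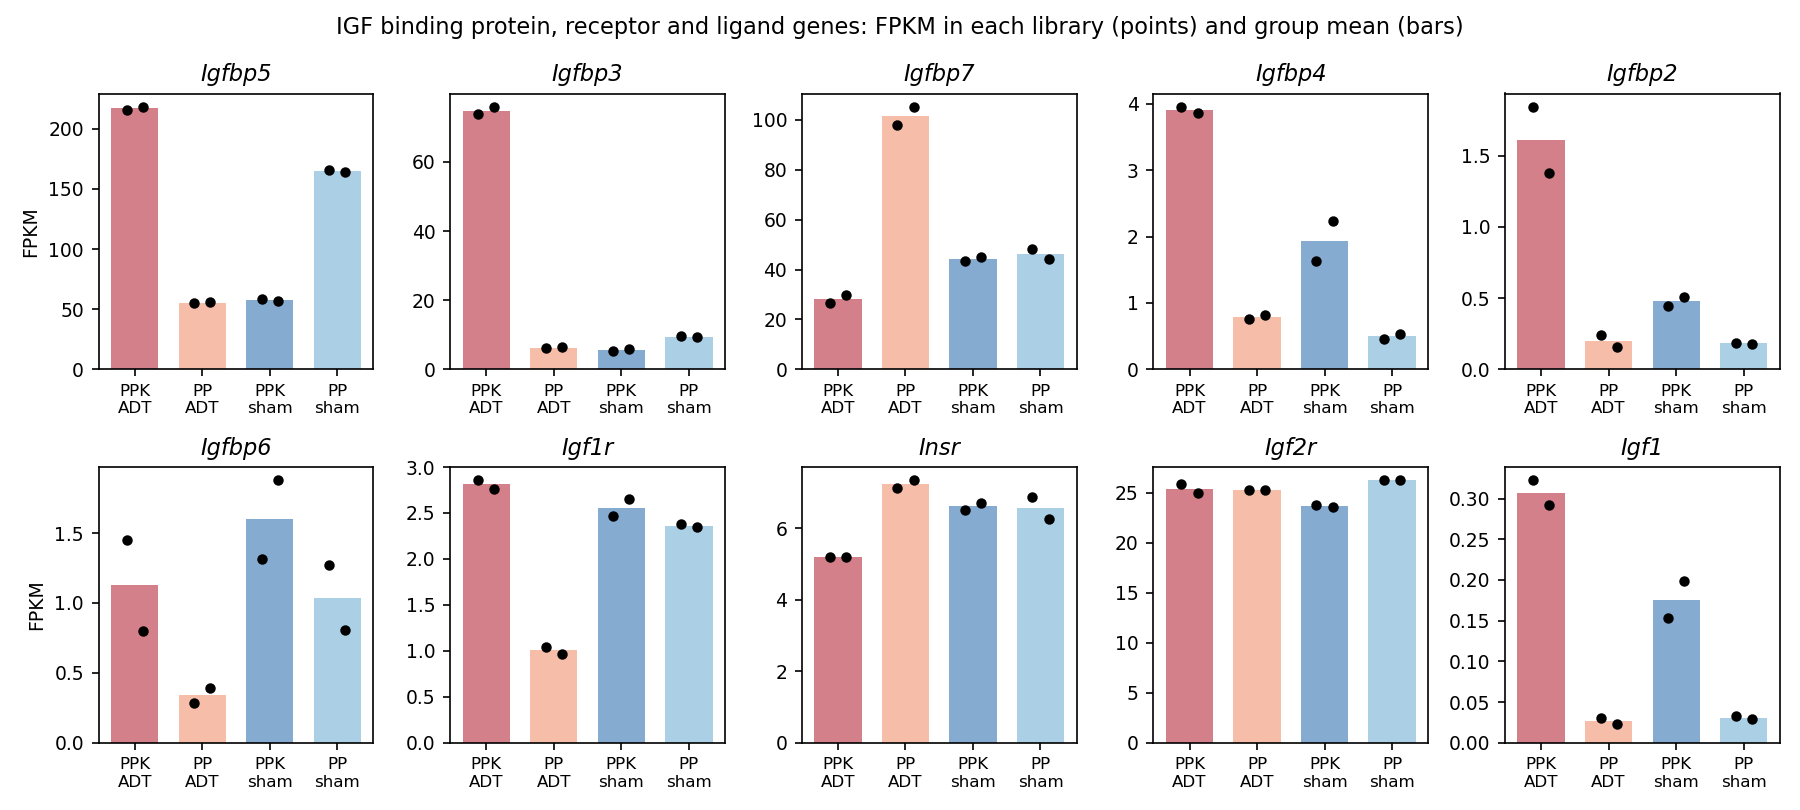
FPKM of the 10 members, 1 panel each, with points for the libraries and bars for the group means. Igfbp3 reaches 73.8 and 76.0 FPKM in PPK ADT and at most 9.49 elsewhere, Igfbp5 is high in PPK ADT and PP sham, and Igfbp7 is highest in PP ADT.

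The 3 other binding proteins were scarce. Igfbp4 (ENSMUSG00000017493, chr11:99041244-99054392, plus strand), an inhibitor of IGF action that the protease PAPP-A cleaves, had 3.96 and 3.86 FPKM in PPK ADT libraries, 0.764 and 0.811 in PP ADT, 1.64 and 2.23 in PPK sham, and 0.455 and 0.534 in PP sham libraries. PPK libraries were above PP libraries under both conditions. The log2 fold change of PPK over PP was 1.46 ± 0.11 with ADT (adjusted p 5.24e-05) and 0.97 ± 0.11 in sham (adjusted p 0.00122). With ADT and age the change was 0.75 ± 0.11 in PPK (adjusted p 0.00122), and PP mice gave 0.26 ± 0.11 (adjusted p 0.109). That last value was called without PPK sham replicate A (adjusted p 0.049) or B (adjusted p 0.0495).

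Igfbp2 (ENSMUSG00000039323, chr1:72824503-72852474, plus strand), a binding protein with an integrin-binding RGD motif, had 1.84 and 1.38 FPKM in PPK ADT libraries, 0.241 and 0.159 in PP ADT, 0.447 and 0.506 in PPK sham, and 0.186 and 0.178 in PP sham libraries. Both PPK groups stood above their PP groups. With ADT the log2 fold change of PPK over PP was 1.12 ± 0.11 (adjusted p 0.000182), and in sham it was 0.32 ± 0.11 (adjusted p 0.0788). Without PPK ADT replicate A or B the sham adjusted p was 0.0391 and 0.0394, and with a pseudocount of 0.1 the sham log2 fold change was 1.03. Igfbp2 and Igfbp5 are neighbours on chromosome 1, end to end on opposite strands with 5457 bases between them. Their values parted in sham mice, where Igfbp5 was lower in PPK and Igfbp2 gave 0.32.

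Igfbp6 (ENSMUSG00000023046, chr15:102144362-102149511, plus strand), which prefers IGF2 over IGF1, had 1.45 and 0.802 FPKM in PPK ADT libraries, 0.285 and 0.395 in PP ADT, 1.32 and 1.88 in PPK sham, and 1.27 and 0.803 in PP sham libraries. The PP ADT libraries were the lowest, and the 2 libraries of the other groups lay far apart for this gene. No PP ADT library reached 1 FPKM, so calls against that group follow in part from the filter. The log2 fold change of PPK over PP was 0.65 ± 0.20 with ADT (adjusted p 0.0271, and 0.0731 with no filter) and 0.35 ± 0.20 in sham (adjusted p 0.24). ADT with age gave -0.60 ± 0.20 in PP (adjusted p 0.0484) and -0.30 ± 0.20 in PPK (adjusted p 0.229). The first of these calls ended without PP ADT replicate A (adjusted p 0.112) or B (0.0691) or PPK ADT replicate A (0.134). The PP call ended under 11 of 16 alternatives, 6 of them a left-out library (each but those of PPK ADT), with adjusted p up to 0.213 without PP sham replicate A.

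The summed FPKM of the 6 binding protein genes was 323 and 330 in PPK ADT libraries, 160 and 169 in PP ADT, 111 and 112 in PPK sham, and 226 and 219 in PP sham libraries. Igfbp5 made up 66.7 and 66.1% of the sum in PPK ADT, 34.2 and 33.1% in PP ADT, 52.9 and 50.6% in PPK sham, and 73.5 and 74.9% in PP sham. The share of Igfbp3 was 22.8 and 23.0% in PPK ADT and between 3.74 and 5.10% in the other groups. Igfbp7 was the leading binding protein RNA in PP ADT alone, at 61.1 and 62.4% of the sum, against 8.20 and 9.05% in PPK ADT, 39.3 and 40.2% in PPK sham, and 21.4 and 20.2% in PP sham. The level of Igfbp5 divided by that of Igfbp7 was 8.13 and 7.31 in PPK ADT, 0.560 and 0.531 in PP ADT, 1.35 and 1.26 in PPK sham, and 3.43 and 3.72 in PP sham libraries.

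**Figure D3:**
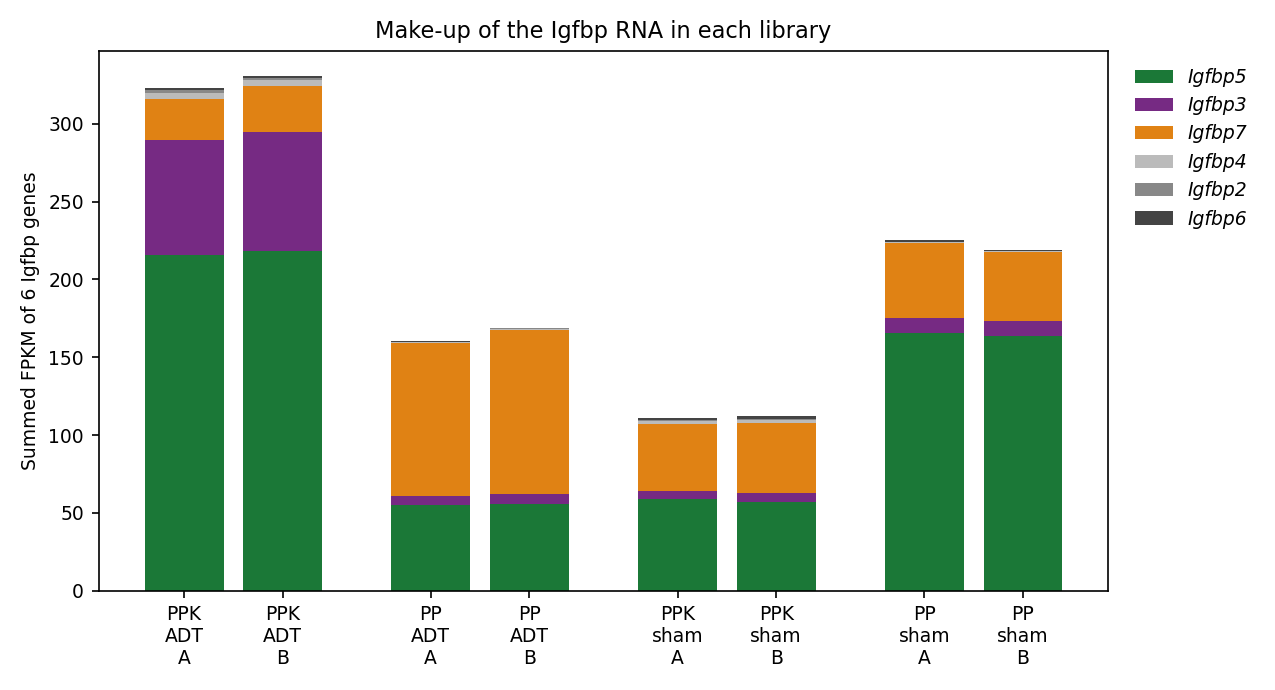
Summed FPKM of Igfbp2 to Igfbp7 in each library as a stacked bar, coloured by gene. Igfbp5 is the largest piece in PPK ADT (66.7 and 66.1% of the bar), PPK sham and PP sham, while Igfbp7 is the largest in PP ADT (61.1 and 62.4%).

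Among the receptors, Igf1r (ENSMUSG00000005533, chr7:67952827-68233668, plus strand), the tyrosine kinase that takes up the IGF1 signal, had 2.86 and 2.77 FPKM in PPK ADT libraries, 1.04 and 0.969 in PP ADT, 2.46 and 2.66 in PPK sham, and 2.38 and 2.35 in PP sham libraries. PP ADT was the low group and the other groups lay close together. PPK over PP gave a log2 fold change of 0.93 ± 0.08 with ADT (adjusted p 6.83e-05) and 0.08 ± 0.08 in sham (adjusted p 0.474), a difference of 0.85 ± 0.11 (adjusted p 0.000758). In PP mice the change with ADT and age was -0.75 ± 0.08 (adjusted p 0.000355), and PPK mice gave 0.10 ± 0.08 (adjusted p 0.293).

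Insr (ENSMUSG00000005534, chr8:3122061-3279617, minus strand), the insulin receptor, had 5.19 and 5.18 FPKM in PPK ADT libraries, 7.13 and 7.34 in PP ADT, 6.52 and 6.70 in PPK sham, and 6.88 and 6.26 in PP sham libraries. PPK ADT was the low group for Insr, and the sham groups overlapped. The log2 fold change of PPK over PP was -0.41 ± 0.06 with ADT (adjusted p 0.00142) and 0.01 ± 0.06 in sham (adjusted p 0.94). In PPK mice the change with ADT and age was -0.30 ± 0.06 (adjusted p 0.00594), and PP mice gave 0.12 ± 0.06 (adjusted p 0.164). The level of Insr divided by that of Igf1r was 1.82 and 1.87 in PPK ADT, 6.85 and 7.58 in PP ADT, 2.65 and 2.52 in PPK sham, and 2.90 and 2.67 in PP sham libraries.

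Igf2r (ENSMUSG00000023830, chr17:12682406-12769664, minus strand), the mannose 6-phosphate receptor that clears IGF2, had 25.9 and 24.9 FPKM in PPK ADT libraries, 25.3 and 25.3 in PP ADT, 23.8 and 23.6 in PPK sham, and 26.2 and 26.3 in PP sham libraries. It was the most abundant receptor in every library, and the ADT groups overlapped. PPK over PP gave a log2 fold change of 0.01 ± 0.04 with ADT (adjusted p 0.887) and -0.14 ± 0.04 in sham (adjusted p 0.0274). The sham call ended without any 1 of the 4 sham libraries (adjusted p 0.102 and 0.104 without PP sham A or B, 0.0793 and 0.0975 without PPK sham A or B). ADT with age gave 0.10 ± 0.04 in PPK (adjusted p 0.0526, and 0.0479 without PPK ADT replicate B) and -0.05 ± 0.04 in PP mice (adjusted p 0.284). The antisense gene Airn, which overlaps Igf2r, had 0.347 to 1.71 FPKM.

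The ligand gene Igf1 (ENSMUSG00000020053, chr10:87858265-87937042, plus strand) had 0.323 and 0.292 FPKM in PPK ADT libraries, 0.0304 and 0.0229 in PP ADT, 0.153 and 0.199 in PPK sham, and 0.0328 and 0.0292 in PP sham libraries. It was the lowest member in every group and was not tested. In the prostate IGF1 is known chiefly as a product of stromal cells. In a fit without the minimum level, the log2 fold change of PPK over PP was 0.35 with ADT (adjusted p 0.000579) and 0.19 in sham (adjusted p 0.017).

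Ordered by level, the members ran Igfbp5, Igfbp3, Igfbp7, Igf2r, Insr, Igfbp4, Igf1r, Igfbp2, Igfbp6 and Igf1 in PPK ADT. In PP ADT the order was Igfbp7, Igfbp5, Igf2r, Insr, Igfbp3, Igf1r, Igfbp4, Igfbp6, Igfbp2 and Igf1. PPK sham ran Igfbp5, Igfbp7, Igf2r, Insr, Igfbp3, Igf1r, Igfbp4, Igfbp6, Igfbp2 and Igf1, and PP sham differed from it in having Igfbp3 before Insr and Igfbp6 before Igfbp4. Neighbours in these orders overlapped only for Igfbp2 and Igfbp6 in PPK ADT and for Igfbp4 and Igfbp6 in PPK sham. Among all 14000 tested genes Igfbp3 ranked 547th by level in PPK ADT, 5925th in PP ADT, 6588th in PPK sham and 4505th in PP sham.

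Markers of other cell types moved with several of these values, and fewer cells of a type and less RNA per cell cannot be told apart in bulk samples. The summed level of 8 basal markers was 5779 to 5848 FPKM in PPK ADT, 849 to 860 in PP ADT, 1333 to 1345 in PPK sham, and 878 to 884 in PP sham libraries. Outside PPK ADT most of this sum was Krt15, which had 950 and 981 FPKM in PPK ADT, 698 and 705 in PP ADT, 1266 and 1279 in PPK sham, and 812 and 807 in PP sham libraries. Between PPK and PP, 6 of the 8 were higher and 1 lower with ADT, and 2 were higher and 4 lower in sham, against the direction of the sham sums. Of all tested genes 59.6% were called with ADT and 28.6% in sham. The basal keratin Krt5 had 3242 and 3243 FPKM in PPK ADT, 94.3 and 96.8 in PP ADT, and 21.0 to 30.0 in the sham libraries. Itga6, which encodes the CD49f used in the sort, had 33.9 and 34.4 FPKM in PPK ADT, against 34.2 and 32.6 in PP ADT libraries. In sham it had 17.9 and 16.8 FPKM in PPK and 25.9 and 26.6 in PP libraries.

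The sum of 11 luminal markers was 1897 to 1922 FPKM in PPK ADT, 5909 to 5974 in PP ADT, 5092 to 5154 in PPK sham, and 5643 to 5733 in PP sham libraries, with Pbsn at 0 in both ADT groups. Krt8, Krt18 and Krt19 hold most of it, so the sum does not show the list's direction. With ADT 9 of the 11 were lower in PPK than in PP and 0 higher, and in sham 5 were lower and 3 higher. Of all tested genes 59.6% were called with ADT and 28.6% in sham. ADT with age went with 11 lower in PPK, and with 8 lower and 2 higher in PP mice, where Tmprss2 had 39.1 and 38.0 FPKM with ADT against 110 and 109 in sham libraries. The share of all tested genes called for ADT with age was 62.6% in PPK and 44.2% in PP. Epcam had 310 and 315 FPKM in PPK ADT, 462 and 470 in PP ADT, 556 and 565 in PPK sham, and 522 and 506 in PP sham libraries. The cells were sorted on EpCAM, so its presence does not test how pure they were. Igfbp3 and Igfbp5 were highest in the PPK ADT libraries, where most basal markers were high and most luminal markers low. In PP sham Igfbp5 was at 166 and 164 FPKM. Of the basal markers, Krt5 was at 30.0 and 27.1 there, Krt15 at 812 and 807, and Itga6 at 25.9 and 26.6. In sham Igfbp5 was lower in PPK than in PP, as were 4 of the 8 basal markers, while 2 were higher.

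**Figure D4:**
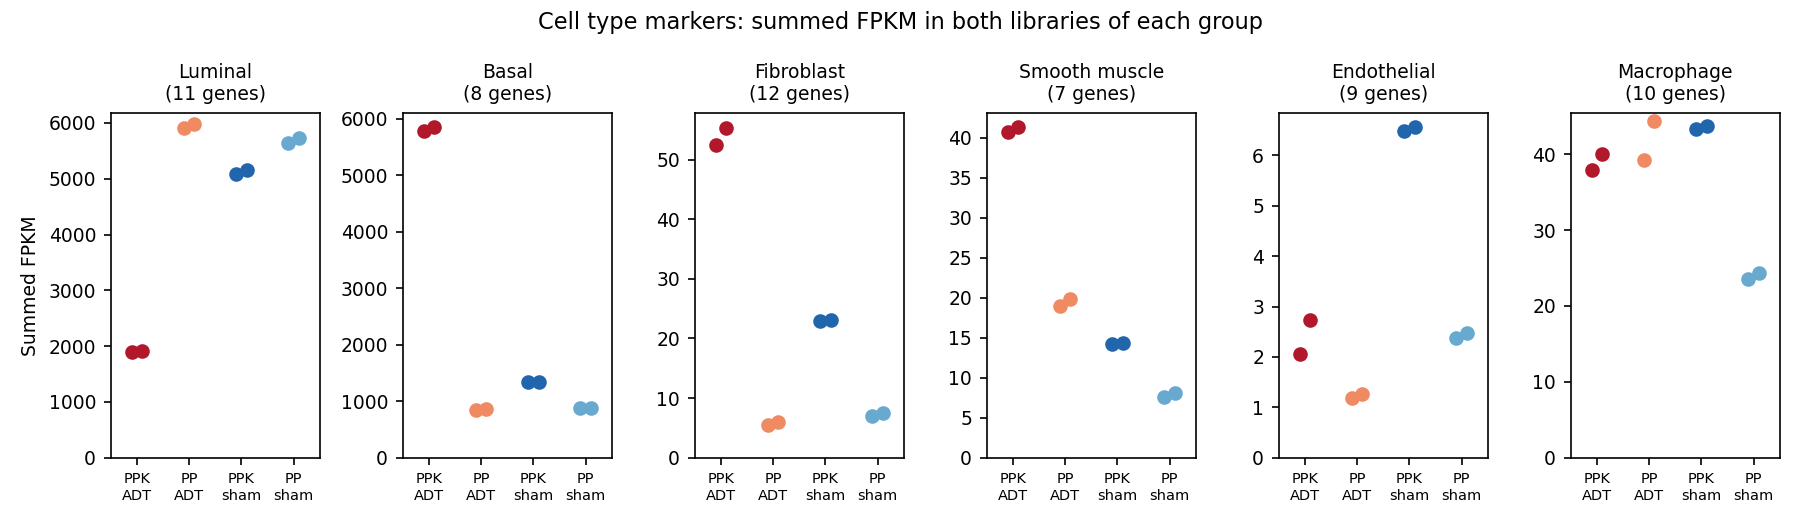
Summed FPKM of the marker genes of 6 cell types, 1 panel each with its own axis from 0, with a point for each library. PPK ADT has the highest basal sum (5779 to 5848), the lowest luminal sum (1897 to 1922) and the highest fibroblast sum (52.5 to 55.3).

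The summed level of 12 fibroblast markers was 52.5 to 55.3 FPKM in PPK ADT, 5.53 to 6.05 in PP ADT, 22.9 to 23.2 in PPK sham, and 7.02 to 7.50 in PP sham libraries, with none at 0 in both libraries of any group. Under 1 FPKM in both libraries were 2 of the 12 in PPK ADT, 11 in PP ADT, 6 in PPK sham and 11 in PP sham. Of 9 tested fibroblast markers, PPK was higher than PP for 9 with ADT and for 8 in sham, beside 32.5 and 13.7% of all tested genes. All of the 9 except Dcn reached 1 FPKM in PPK libraries alone, so these counts follow in part from the filter. Like the fibroblast sum, Igfbp4, Igfbp2 and Igf1 were highest in PPK ADT and next in PPK sham. For Igfbp3 and Igfbp5 the sham groups ran the other way, lower in PPK sham, while the fibroblast sum was higher in PPK sham. Smooth muscle markers, 7 genes, summed to 40.8 to 41.4 FPKM in PPK ADT, 19.0 to 19.8 in PP ADT, 14.3 in both PPK sham libraries with Actg2 at 0, and 7.57 to 8.14 in PP sham. Smtn made up most of this sum in every group, with 29.4 and 28.9 FPKM in PPK ADT and 17.5 and 17.2 in PP ADT. It had 8.33 and 8.72 FPKM in PPK sham and 5.97 and 5.48 in PP sham libraries. Of the 3 tested, Acta2 and Tagln had lower values in PP ADT than in PPK sham, and Smtn higher ones. Endothelial markers, 9 genes, summed to 2.05 to 2.74 FPKM in PPK ADT, 1.19 to 1.27 in PP ADT, 6.48 to 6.57 in PPK sham and 2.38 to 2.47 in PP sham. Macrophage markers, 10 genes, summed to 37.9 to 40.0 FPKM in PPK ADT, 39.2 to 44.4 in PP ADT, 43.3 to 43.7 in PPK sham and 23.6 to 24.3 in PP sham. Cd68 was the largest part in every library (10.9 to 21.4 FPKM). Mrc1 ran another way, with 7.48 and 7.54 FPKM in PP sham and 0.400 and 0.369 in PPK ADT. In sham 5 of 6 tested macrophage markers were higher in PPK than in PP and 1 lower, where 28.6% of all tested genes were called. With ADT 1 of the 6 was higher in PPK and 4 were lower, where 59.6% of all tested genes were called. The part of these cell types in the members' values was not tested.

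Other genes of the IGF system were mostly scarce in this epithelium. Of 20 listed ligands, binding proteins and proteases 7 reached the test, and Igfbp1, Ins1 and Ins2 were listed at 0 in every library. Of the 7, PPK was higher than PP for 4 and lower for 2 with ADT, and higher for 2 and lower for 4 in sham (median log2 fold change 0.37 and -0.49), where 59.6 and 28.6% of all tested genes were called. ADT with age went with 3 higher and 3 lower in PPK and with 2 higher and 4 lower in PP, where 62.6 and 44.2% of all tested genes were called. Of the listed proteases that cut binding proteins, Adam28, Htra1 and Adam9 reached the test, and Pappa, Pappa2 and Htra3 did not. Adam28 had 10.2 and 9.83 FPKM in PPK ADT libraries, 1.65 and 1.40 in PP ADT, 0.887 and 1.11 in PPK sham, and 2.37 and 2.74 in PP sham libraries. Like Igfbp3, it was higher in PPK with ADT (2.12 ± 0.10, adjusted p 5.06e-06) and lower in PPK in sham (-0.83 ± 0.10, adjusted p 0.00139). Htra1 had 6.19 and 4.25 FPKM in PPK ADT and 0.0919 and 0.0806 in PP ADT libraries, a log2 fold change of 2.50 ± 0.15 (adjusted p 1.49e-05). It reached 1 FPKM in the PPK ADT libraries alone, so this call follows in part from the filter. Adam9 had 20.3 and 18.5 FPKM in PPK ADT, 38.6 and 36.1 in PP ADT, 33.8 and 39.2 in PPK sham, and 51.9 and 51.5 in PP sham libraries. Unlike the other two, it was lower in PPK with ADT (-0.91 ± 0.08, adjusted p 9.29e-05). Insrr, the insulin receptor-related receptor, had 0.678 and 0.644 FPKM in PPK ADT, 0.0861 and 0.128 in PP ADT, 2.37 and 2.16 in PPK sham, and 9.21 and 8.70 in PP sham libraries. It was lower with ADT in PPK (-0.97 ± 0.08, adjusted p 6.87e-05) and in PP (-3.17 ± 0.08, adjusted p 9.39e-07). Insrr reached 1 FPKM in the sham libraries alone, so these calls follow in part from the filter. Igf2bp2, an RNA-binding protein of IGF2 and other messages, had 13.2 and 12.5 FPKM in PPK ADT, 19.4 and 19.3 in PP ADT, 1.05 and 1.34 in PPK sham, and 0.806 and 0.484 in PP sham libraries. It was higher with ADT in PPK (2.66 ± 0.11, adjusted p 2.83e-06) and in PP (3.64 ± 0.11, adjusted p 1.9e-06).

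Downstream of the receptors the calls went both ways. Of 55 listed genes of insulin and IGF receptor signalling 49 were tested. With ADT 18 were higher and 17 lower in PPK than in PP, and in sham 4 were higher and 10 lower (median 0.02 and -0.03), where 59.6 and 28.6% of all tested genes were called. The sham share of called genes was thus that of all genes. ADT with age went with 18 higher and 14 lower in PPK, and with 12 higher and 14 lower in PP, where 62.6 and 44.2% of all tested genes were called. Grb10, an adaptor that restrains both receptors, had 0.650 and 0.739 FPKM in PPK ADT, 6.02 and 5.65 in PP ADT, 0.880 and 0.755 in PPK sham, and 0.986 and 1.03 in PP sham libraries. It stood out in PP ADT, with a log2 fold change of PPK over PP of -2.01 ± 0.08 (adjusted p 3.01e-06). Outside PP ADT only PP sham replicate B reached 1 FPKM, so this call follows in part from the filter. Enpp1, an ectoenzyme known to inhibit the insulin receptor, had 1.24 and 1.33 FPKM in PPK ADT, 7.14 and 7.32 in PP ADT, 2.72 and 2.97 in PPK sham, and 8.59 and 8.28 in PP sham libraries. It was lower in PPK with ADT (-1.85 ± 0.07, adjusted p 1.79e-06) and in sham (-1.30 ± 0.07, adjusted p 4.6e-05). Slc2a1, the glucose transporter GLUT1, had 234 and 226 FPKM in PPK ADT, 222 and 229 in PP ADT, 107 and 107 in PPK sham, and 90.8 and 92.5 in PP sham libraries. It was higher with ADT in PPK (1.09 ± 0.03, adjusted p 3.44e-07) and in PP (1.29 ± 0.03, adjusted p 5.88e-07). Irs2, the insulin receptor substrate, was picked after its values were seen. It had 11.4 and 10.04 FPKM in PPK ADT, 2.89 and 3.46 in PP ADT, 5.004 and 5.35 in PPK sham, and 6.63 and 6.04 in PP sham libraries. As for Igf1r, PP ADT was its low group, and the log2 fold change of PPK over PP with ADT was 1.49 ± 0.10 (adjusted p 2.46e-05).

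Cell surface and matrix partners of the binding proteins were tested for 12 of 18 listed genes. PPK was higher than PP for 6 and lower for 5 with ADT, and higher for 8 and lower for 1 in sham (median 0.27 and 0.33). Of all tested genes 32.5% were higher and 27.1% lower with ADT, and 13.7% higher and 14.9% lower in sham. ADT with age went with 6 higher and 5 lower in PPK, and with 8 higher and 2 lower in PP, where 62.6 and 44.2% of all tested genes were called. Of the syndecans, heparan sulphate proteoglycans, Sdc1 and Sdc4 parted in PPK ADT. Sdc2 was not called for PPK over PP with ADT (log2 fold change 0.07 ± 0.12, adjusted p 0.632). Sdc1 had 349 and 353 FPKM in PPK ADT, 133 and 133 in PP ADT, 109 and 109 in PPK sham, and 86.9 and 88.6 in PP sham libraries. Sdc4 had 201 and 202 FPKM in PPK ADT, 621 and 610 in PP ADT, 491 and 483 in PPK sham, and 341 and 346 in PP sham libraries. With ADT the log2 fold change of PPK over PP was 1.40 ± 0.02 for Sdc1 (adjusted p 8.28e-08) and -1.61 ± 0.02 for Sdc4 (adjusted p 4.53e-08). Gpc3, a glypican, had 17.4 and 17.5 FPKM in PPK ADT and at most 0.138 in any other library, with a log2 fold change of PPK over PP of 4.03 ± 0.08 with ADT (adjusted p 1.48e-07), a call that follows in part from the filter since no other group reached 1 FPKM. Lrp1, a receptor that binds IGFBP-3, had 39.5 and 38.5 FPKM in PPK ADT, 10.4 and 9.84 in PP ADT, 4.97 and 5.12 in PPK sham, and 3.90 and 3.58 in PP sham libraries. With ADT it was higher in PPK than in PP (1.85 ± 0.06, adjusted p 8.19e-07). ADT with age went with 2.73 ± 0.06 in PPK (adjusted p 1.26e-07) and 1.23 ± 0.06 in PP mice (adjusted p 1.04e-05).

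**Figure D5:**
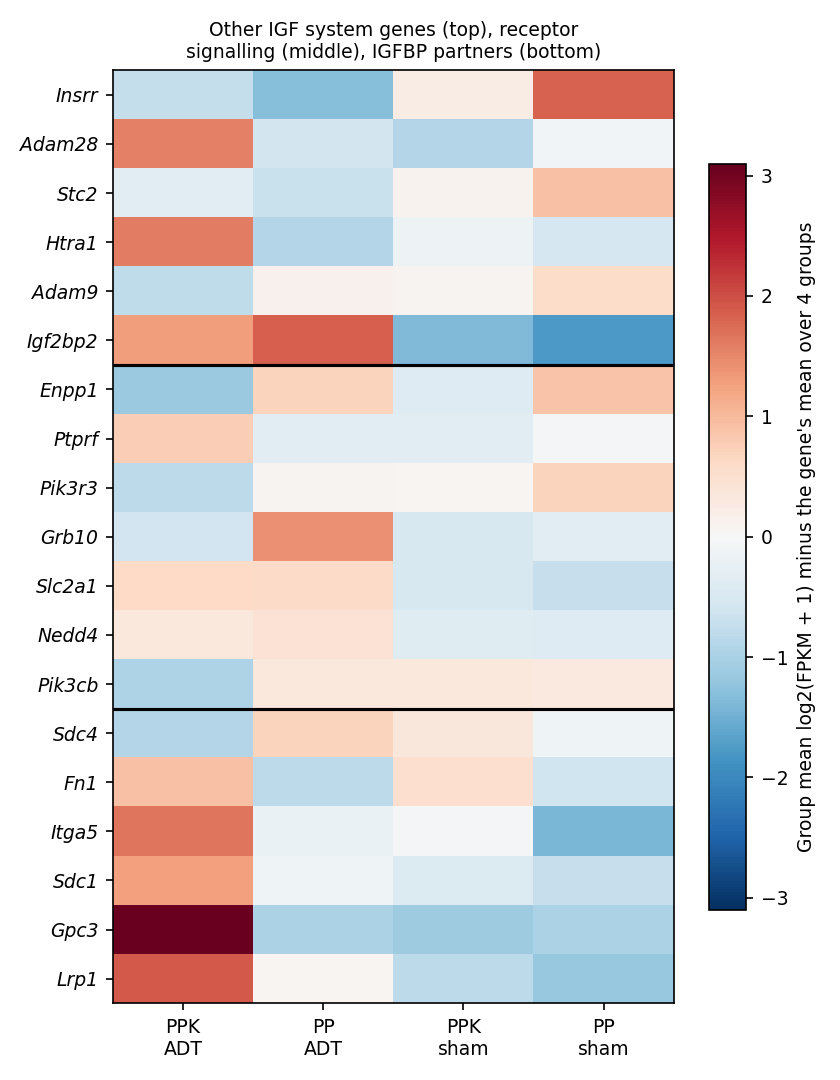
Group mean log2(FPKM + 1) of the pathway genes with the smallest adjusted p, in colour, as the deviation from the gene's mean over the 4 groups. Gpc3, Adam28 and Htra1 are high in PPK ADT (red), Grb10 is high in PP ADT, and Insrr is high in PP sham.

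Genes with the most similar pattern were sought for the 3 members with the widest range of group means, among 2605 genes, by Pearson's r of log2(FPKM + 1) over the 8 libraries, which fall into 4 groups. For Igfbp3 these were Rrad (r = 0.9992), Eef1a1 (0.999) and Rpl3-ps1 (0.9987). Eef1a1 and the pseudogene Rpl3-ps1 have near-identical copies, so their values are uncertain. Rrad, a small GTPase, had 6.50 and 6.72 FPKM in PPK ADT, 1.09 and 1.13 in PP ADT, 1.06 and 1.09 in PPK sham, and 1.70 and 1.54 in PP sham libraries. For Igfbp5 they included Hilpda (0.9878) and Rnase4 (0.9874). Hilpda, a lipid droplet protein, had 30.6 and 28.4 FPKM in PPK ADT, 10.3 and 11.0 in PP ADT, 10.8 and 11.1 in PPK sham, and 29.2 and 28.7 in PP sham libraries. It shared the high PPK ADT and PP sham groups of Igfbp5. For Igfbp7 they were Reg3g (0.9929), Sntb2 (0.9917) and Ccn2 (0.9892). Ccn2, connective tissue growth factor, had 8.27 and 8.55 FPKM in PPK ADT, 49.7 and 48.3 in PP ADT, 17.9 and 17.4 in PPK sham, and 15.8 and 14.3 in PP sham libraries.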

How the data were processed

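RNA of sorted prostate epithelium was measured in 8 libraries. Per the labels' protocols, total RNA was extracted with Trizol and strand-specific TruSeq libraries were made. FPKM values per gene were computed by the authors and deposited as 1 table per library. Per the submitters' processing notes, FastQC 0.11.2 and the build mm10 were used. Not given in the sources used here are the aligner, the quantifier and the annotation. Organoids, which the design text also names, were not analysed here.

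Joining the tables gave 55335 Ensembl identifiers, and 55154 of these matched a symbol in a gene name table. Gene positions are from GENCODE M21 on GRCm38. Genes with at least 1 FPKM in at least 2 libraries (14000) were fitted as log2(FPKM + 1) in limma 3.58.1 (R 4.3.3) with 4 group means and a trend of the variance with the mean, leaving 4 residual degrees of freedom and 2.4 from the prior. Tests were two-sided, with Benjamini-Hochberg adjustment over all tested genes. The 5 comparisons were PPK against PP with ADT and in sham, ADT against sham in PPK and in PP, and the difference of both genotype effects. Groups came from the sample titles. No counts are in the tables, so no counting interval is given. Python 3.11.15 was used with pandas 2.3.3, numpy 2.4.6 and matplotlib 3.10.9.

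All members and Kmt2c were named whatever their values. From each pathway list up to 3 called genes with the smallest adjusted p per comparison could be named, and the text gives some of these. Irs2 and the single marker genes were picked with their values in view. A few items that the naming rule picks are not reported here. The members and lists were chosen with earlier results of these data known. Alternatives were a pseudocount of 0.1, no filter, a mean of at least 1 FPKM, quantile normalization, median-of-ratios scaling, each library left out, a block for the replicate letter, a fit of only the groups compared, no trend, and a log2 fold change of at least 1.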

Additional observations from a re-analysis of the deposited data

Results flagged for a closer look

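For 8 members the effect of the PPK genotype differed between ADT and sham mice, by limma's test of the difference itself (log2 fold change of PPK over PP with ADT minus that in sham). The same test called 52.8% of all tested genes, 30.0% higher and 22.8% lower. The difference was positive for Igfbp3 (4.085, adjusted p 2.16e-07), Igfbp5 (3.451, adjusted p 3.72e-08), Igf1r (0.845, adjusted p 0.000758), Igfbp2 (0.795, adjusted p 0.00564), Igfbp4 (0.492, adjusted p 0.0391) and Igf2r (0.149, adjusted p 0.0461). It was negative for Igfbp7 (-1.755, adjusted p 2.09e-05) and Insr (-0.421, adjusted p 0.00759). For Igfbp3 and Igfbp5 the genotype effects had opposite signs in ADT and sham mice, and both were called. Igfbp6 gave 0.30 (adjusted p 0.406). Igfbp2 entered the test only through the PPK ADT libraries, so its call follows in part from the filter. Groups of 2 libraries are too small for a check of single outlying libraries.

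The calls for Igf2r and Igfbp4 were the least stable. That of Igf2r ended under 11 of 15 alternatives (adjusted p 0.0649 to 0.248), 7 of them a left-out library, which were all but PPK ADT replicate B. That of Igfbp4 ended under 10 of 15 (adjusted p 0.0528 to 0.229), 7 of them a left-out library, which were all but PPK sham replicate B.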

How the results depend on the processing

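Each of 17 alternatives changed 1 choice. Of 45 results for single members, none changed sign where called, and 36 kept their call under all alternatives other than the 2-fold minimum. The calls that ended concern Igf2r, Igfbp4 and Igfbp6, and those gained concern Igfbp2, Igfbp4, Insr and Igf2r. The cause was not tested. With a log2 fold change of at least 1, members called numbered 5 for PPK over PP with ADT, 1 in sham, 2 for ADT over sham in PPK, 2 in PP, and 3 for the difference of effects. All genes called were then 2498, 515, 2761, 1214 and 2944 in the same order, against 8340, 4000, 8765, 6185 and 7395 in the fit reported. Leaving out 1 library at a time gave 7 to 8, 3 to 5, 6 to 7, 4 to 5, and 6 to 7 members in that order, and 7266 to 8279, 2758 to 3819, 7648 to 8624, 4778 to 6079, and 6529 to 6755 genes.

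The letters A and B were not taken as pairs, since the correlation of the deviations of same-lettered libraries was -0.008 to 0.057. With the letter as a replicate block 8, 4, 6, 4 and 7 members and 8182, 3755, 8626, 6013 and 7186 genes were called. Slc2a1 for PPK over PP with ADT was -0.364 under quantile normalization (adjusted p 0.000542), against an adjusted p of 0.512 in the fit reported. A mean of at least 1 FPKM removed Igfbp2 from the test, and a fit of only the groups compared gives no difference of effects. Depth is unknown, so the members under 1 FPKM have no counting limit.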
